A study of Mus musculus with 2 samples.

Results

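The regions described here are stretches of transcribed DNA that lie opposite annotated genes in the central nervous system of the mouse embryo. The deposited contig list joins overlapping RNA-seq reads into contigs, each with a strand and a level, on the mouse genome build mm9. A contig was taken when it was at least 500 bases long, overlapped an Ensembl 65 gene span by 1 base or more on the opposite strand, and overlapped no gene span on its own strand. The gene on the opposite strand is called the host. The rule gave 11789 antisense contigs of the 289996 contigs of at least 500 bases, or 4.07%, and of 816060 contigs in all.

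The study sequenced polyadenylated RNA from 1 tissue, the central nervous system of C57BL/6J embryos of mixed sex at embryonic day 11.5, as 2 libraries that the labels name biological replicates 1 and 2. The RNA was depleted of ribosomal RNA and longer than 200 nucleotides, and the libraries kept the strand of each RNA. There is no second tissue, age or treatment, so no contrast between conditions can be made and no p-value is given. Each library pooled littermates, and the labels give no dissection boundary.

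The contig list pools both libraries, so a contig's level has no spread of its own. Values for each library exist for splice junctions (reads), for assembled gene models (RPKM) and for annotated genes on build mm10 (expected counts and TPM). The paired values of the mm9 files are called the first and second value, because no label ties them to replicate 1 or 2. The libraries held 120461123 and 108006997 expected counts on annotated genes. All 6 neural markers examined (Sox2, Pax6, Nes, Vim, Tubb3 and Dcx) were present, with summed TPM of 3958 and 2103 in replicates 1 and 2. All 12 markers of blood, vessel, mesenchyme, muscle, liver and yolk sac were also above 0 in both, 10 of them at 1 TPM or more in both. Their sums of 10981 and 17007 were mostly the blood marker Hbb-y, at 8740 and 13866. The muscle markers Myod1 and Myog had 0.15 and 0.4 TPM in replicate 1 but 19.4 and 34.2 in replicate 2. Other markers, such as Alb at 353 and 110, were higher in replicate 1. The part of these other cell types in the antisense contigs, and in differences between the libraries, was not tested.

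Many mammalian genes are overlapped by RNA made from the other DNA strand, called natural antisense transcripts. Such RNAs often begin near the start of the host and run away from it, begin inside an intron, or run into the host from a neighbouring gene. The best known arise at imprinted loci, where one parental copy makes a long antisense RNA; Kcnq1ot1, which starts in an intron of the potassium channel gene Kcnq1 and is made from the paternal chromosome, is a textbook example.

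Sequences are shown for the promoters that the results below return to, from the RefSeq promoter table of build GRCm38.p6, 300 bases that end shortly after an annotated start. Each is written 5′ to 3′ on the strand of its gene, with every CG dinucleotide in capitals, because CG counts differed between groups of hosts. The first is the annotated start of Kcnq1ot1 itself (chr7:143296498-143296797, minus strand), which holds 9 CG dinucleotides. The next 3 are promoters of neural transcription factor genes crossed by an antisense contig, with 25, 23 and 42 CG dinucleotides: Irx2 (chr13:72628570-72628869, plus strand), Pax5 (chr4:44710645-44710944, minus strand) and Barhl2 (chr5:106458117-106458416, minus strand). The last 2 belong to genes on opposite strands at 1 locus, Nr2f2 (chr7:70366697-70366996, minus strand) and the noncoding gene B130024G19Rik (chr7:70365133-70365432, plus strand), with 2 and 9 CG dinucleotides.
Kcnq1ot1: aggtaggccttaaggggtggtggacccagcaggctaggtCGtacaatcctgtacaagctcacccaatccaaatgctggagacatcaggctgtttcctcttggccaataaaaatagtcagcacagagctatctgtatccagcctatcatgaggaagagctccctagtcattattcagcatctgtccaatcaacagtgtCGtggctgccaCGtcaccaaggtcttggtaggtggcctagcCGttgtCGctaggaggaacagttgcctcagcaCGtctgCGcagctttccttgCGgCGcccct
Irx2: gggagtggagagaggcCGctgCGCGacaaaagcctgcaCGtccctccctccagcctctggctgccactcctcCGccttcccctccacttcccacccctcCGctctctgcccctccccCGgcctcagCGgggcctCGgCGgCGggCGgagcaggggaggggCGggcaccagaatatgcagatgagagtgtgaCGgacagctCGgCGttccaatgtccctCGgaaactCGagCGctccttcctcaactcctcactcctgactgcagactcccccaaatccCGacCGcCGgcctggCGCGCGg
Pax5: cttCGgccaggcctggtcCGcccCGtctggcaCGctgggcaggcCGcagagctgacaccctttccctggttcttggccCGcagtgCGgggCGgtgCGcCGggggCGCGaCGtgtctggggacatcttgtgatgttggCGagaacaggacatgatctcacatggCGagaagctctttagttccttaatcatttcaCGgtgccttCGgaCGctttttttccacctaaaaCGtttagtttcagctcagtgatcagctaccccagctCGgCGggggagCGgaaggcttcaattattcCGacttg
Barhl2: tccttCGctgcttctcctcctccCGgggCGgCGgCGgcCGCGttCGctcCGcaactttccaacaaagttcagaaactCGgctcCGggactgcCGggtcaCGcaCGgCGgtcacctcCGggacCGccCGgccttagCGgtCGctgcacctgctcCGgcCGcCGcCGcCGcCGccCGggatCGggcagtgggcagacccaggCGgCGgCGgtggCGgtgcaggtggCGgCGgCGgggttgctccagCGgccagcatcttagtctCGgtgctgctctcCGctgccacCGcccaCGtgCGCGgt
Nr2f2: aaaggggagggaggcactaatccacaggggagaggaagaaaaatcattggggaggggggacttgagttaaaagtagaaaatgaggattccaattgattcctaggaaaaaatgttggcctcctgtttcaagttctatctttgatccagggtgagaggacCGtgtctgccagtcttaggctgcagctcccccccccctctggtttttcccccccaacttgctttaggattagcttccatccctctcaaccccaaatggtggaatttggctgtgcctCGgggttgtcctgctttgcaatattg
B130024G19Rik: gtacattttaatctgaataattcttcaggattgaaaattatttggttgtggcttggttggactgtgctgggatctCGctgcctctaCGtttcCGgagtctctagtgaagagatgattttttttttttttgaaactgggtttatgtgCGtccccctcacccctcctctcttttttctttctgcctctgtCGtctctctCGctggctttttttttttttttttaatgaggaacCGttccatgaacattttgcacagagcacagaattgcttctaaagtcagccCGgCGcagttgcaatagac

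Antisense contigs were faint and short. Their median level was 0.087, with quartiles of 0.058 and 0.146, and their median length was 822 bases. The sources used here do not define the unit of the level, but in this list the mean read coverage of a contig is its level times 62.2, so the median contig was covered by 5.40 reads at each base. Only 231 of the 11789 (1.96%) had a level of 1 or more, and 363 were 5000 bases or longer. The 42990 contigs in no gene had a lower median level, 0.078, and the 221207 contigs with only a same-strand gene a higher one, 0.112. The 14010 contigs with genes on both strands had the highest median of the 4 classes, 0.262. At the length threshold, the 322 antisense contigs of 500 to 509 bases had a median level of 0.057 and the 334 of 490 to 499 bases one of 0.0585. Antisense contigs made up 2.72% of the bases in contigs of at least 500 bases and 2.12% of their summed coverage.

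**Figure D1:**
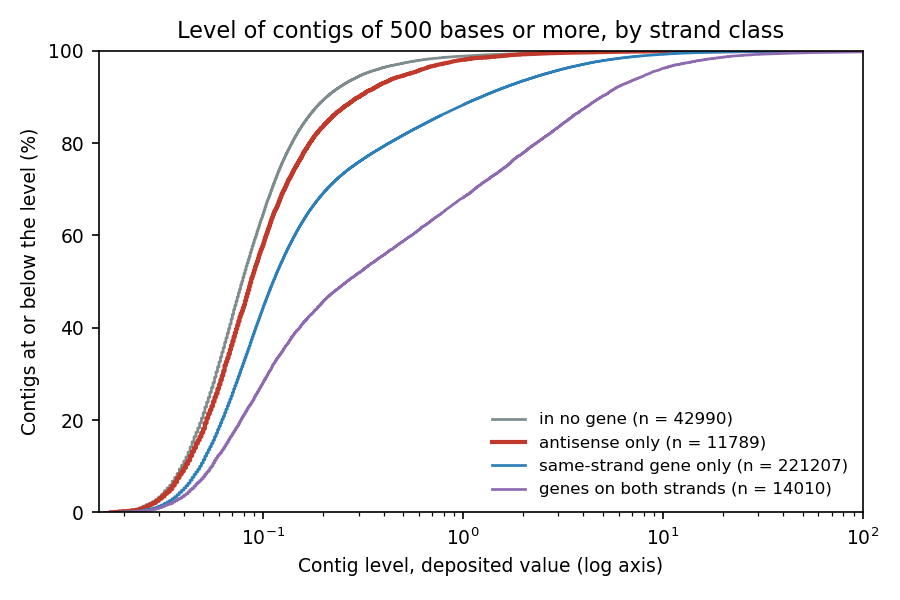
Cumulative share of contigs (%, vertical axis) at or below each deposited level (log axis) for the 4 strand classes of contigs of at least 500 bases; 1 line per class. The antisense line lies between the contigs in no gene (median 0.078) and the contigs with a same-strand gene (median 0.112).

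Most antisense contigs lay wholly inside the host, but those across the host start had the higher levels. Of the 11789, 9477 (80.4%) lay inside the host with a median level of 0.08. Another 1608 (13.6%) crossed the host start with a median level of 0.168, 570 (4.84%) crossed the host end with a median of 0.1125, and 134 covered the host entirely with a median of 0.1415. Among contigs with a level of at least 1, 86 crossed a host start and 123 lay inside. Contigs across the start were also longer, with a median length of 1504.5 bases against 759 inside. The part of length in the difference in level was not tested. The 5′ end lay within 1000 bases downstream of the host start for 1548 contigs (13.1%), of which 1406 ran out across the start. Inside hosts, contig midpoints were more frequent towards the host end. With the host span cut into 10 equal parts, the third part held 6.62% of them and the last part 16.5%. These shares leave out the 1608 contigs across the start and the 570 across the end, so more are missing from the start side. The median level differed little along the host, from 0.076 in the third part to 0.082 in the sixth.

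**Figure D2:**
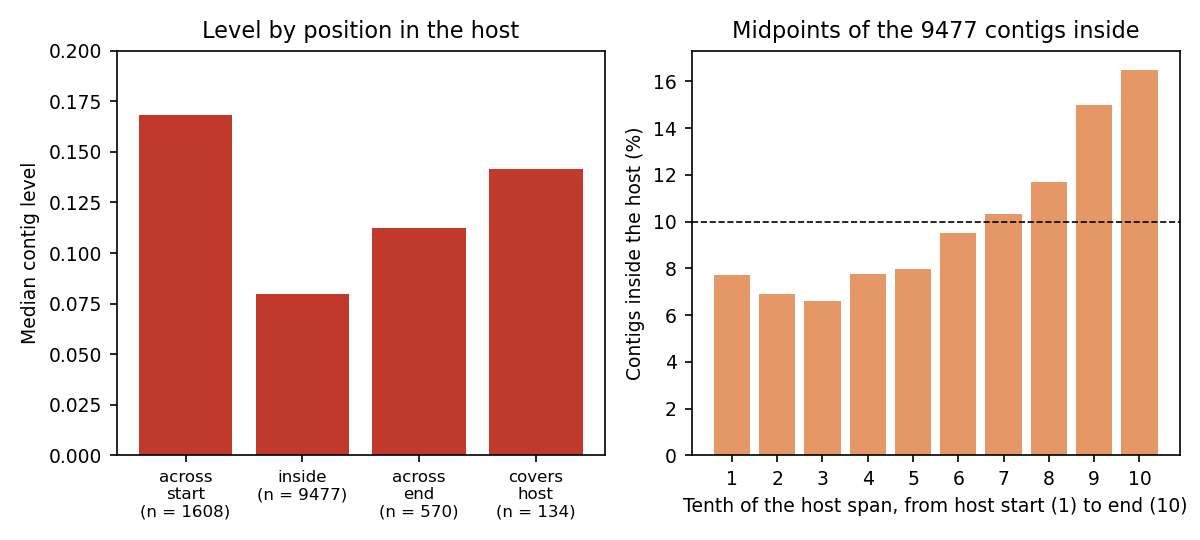
Left, median deposited level of antisense contigs by position relative to the host; right, share of contigs inside the host (%) whose midpoint falls in each of 10 equal parts of the host span, with a dashed line at an even 10%. The highest bar on the left is across the host start (0.168), and the right panel rises to 16.5% in the last part.

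A stretch of exon lay under 5054 of the contigs (42.9%), although exons made up only 12.8% of the bases of antisense contigs. The median level was 0.114 for contigs that touched a host exon and 0.074 for the 6735 that did not. Contigs with a host exon were longer, with a median length of 1151 against 710 bases. All contigs that cross a host start or end touch an exon by construction, and among contigs inside a host 28.9% did.

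Contigs can also continue a gene that lies upstream on their own strand, as transcripts that run past an annotated end. A same-strand gene ended less than 1 kb upstream of 441 antisense contigs (3.74%) and 1 to 5 kb upstream of 1667 (14.1%). For contigs in no gene these shares were 6.20% and 15.6%. For 6128 antisense contigs (52.0%) the nearest upstream gene end was 20 kb or more away. For 8866 contigs (75.2%), no same-strand gene ended within 5 kb upstream, no junction led to one and no assembled model reached one. A same-strand gene that starts downstream was not counted in this distance. Their median level was 0.086, against 0.088 for the other 2923.

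The host strand was also transcribed at most of these places. At 9422 of the 11789 contigs another contig lay on the host strand at the same bases, and the ratio of antisense to host-strand level had a median of 0.379 with quartiles of 0.120 and 1.38. The antisense strand was the higher one at 2848 of the 9422 (30.2%), and at the other 2367 antisense contigs no host-strand contig was listed. For contigs that cross a host start or end, the host-strand level is a mean that includes bases outside the host. Among the 9422 contigs the antisense level rose little with the host strand. Its median was 0.085 where the host strand was below 0.1 and 0.092 from 0.1 to 1. It was 0.106 from 1 to 10 and 0.1205 at 10 or more. Places without an antisense contig of at least 500 bases do not enter these medians, so they cannot show how often antisense signal appears. Over the 9422 contigs Spearman's rho of the 2 levels was 0.127, given as a description, since both strands share libraries, depth and mapping; the share of reads assigned to the wrong strand was not tested. A ratio below 0.01 was found at 159 contigs (1.69%), and of the 90 contigs opposite a level of 10 or more the median ratio was 0.00815. Without the contigs under 1% of an opposite-strand contig 11594 remained.

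**Figure D3:**
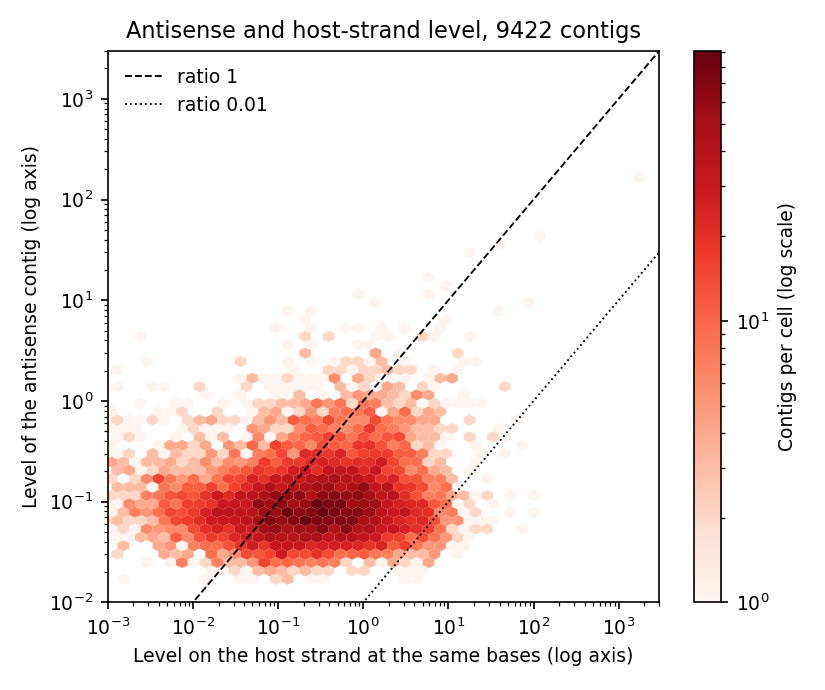
Level of each antisense contig against the level on the host strand at the same bases, both on log axes, for the 9422 contigs with a host-strand contig; the colour of a cell is the number of contigs in it on a log scale. The median antisense level goes from 0.085 to 0.1205 across host-strand levels, among places with an antisense contig of at least 500 bases. The dashed and dotted lines mark ratios of 1 and 0.01.

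Splice junctions have a read count for each library. A junction on the contig's own strand with at least 1 read in each of the paired values touched 1144 antisense contigs (9.70%). The share was 7.21% for contigs in no gene and 27.3% for contigs with only a same-strand gene. Contigs with such a junction had a median level of 0.223 and a median length of 1597 bases, against 0.082 and 793 bases for those without. The 2197 junctions held 36020 reads in the first value and 24139 in the second, with medians of 4 and 3. For 244 contigs (2.07%) a junction led into an annotated gene on the same strand.

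Assembled models add a level for each library. A model lay on the strand of 4389 antisense contigs (37.2%), and these contigs fell on 3126 distinct models, of which 483 reach an annotated gene on their own strand. The other 2643 do not, and 678 of them had 2 or more exons. A mean of at least 0.1 RPKM was reached by 651 of the 3126 models. Of those, 130 (19.97%) were at least 2-fold apart between the first and second value, against a background of 39.1% over all 37509 models at that level. Among the 245 that reach no same-strand gene, 91 (37.1%) were at least 2-fold apart, against 52.1% of the 3316 such models anywhere. Of the 245, 129 were higher in the first value and 116 in the second; over all 2643, fainter ones included, 1018 were higher in the first and 1613 in the second. Spearman's rho between the values was 0.489 over the 245 models and 0.843 over the 651, as a description across models of 1 pair of libraries.

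**Figure D4:**
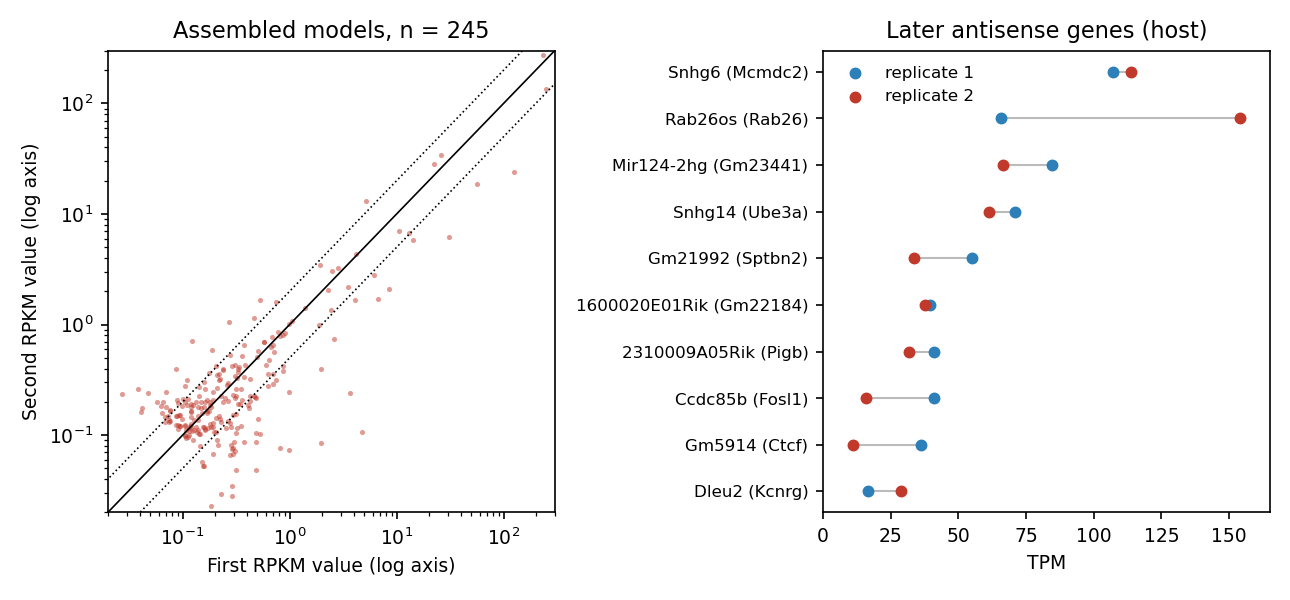
Left, first against second RPKM value (log axes) for the 245 assembled models under antisense contigs that reach no same-strand gene, with lines of equality (solid) and of 2-fold difference (dotted). Right, TPM in replicates 1 and 2 for the 10 antisense genes of the later annotation with the highest mean TPM, host in brackets; Rab26os has the largest difference in TPM of the 10, at 65.9 and 154, and Gm5914 the largest ratio, at 36.1 and 10.95.

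Antisense contigs were found on a minority of genes, and more often on long ones. They had 5135 hosts among 37310 Ensembl 65 genes, a background of 13.8%, and 4414 of 20175 protein-coding genes, a background of 21.9%. Among protein-coding genes the share was 10.1% for spans under 10 kb, 21.9% from 10 to 30 kb, 28.7% from 30 to 100 kb and 43.0% at 100 kb or more. Hosts made up 25.2% of genes with a mean of 1 RPKM or more and 9.07% of the rest. Taking for each contig the host with the largest overlap, 2869 hosts held 1 contig, while 120 hosts held 10 or more and together had 2010 contigs (17.1%). The host with the most was Gm20388, a gene model with a span of 4435 kb, with 122 contigs that summed to 146.6 kb or 3.31% of its span.

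Promoter composition differed with where the contig lay. A RefSeq promoter was found for 1141 of the 1464 protein-coding hosts with a contig across the start, using the first promoter listed for a gene. Their 300-base promoters held a median of 22 CG dinucleotides (quartiles 14 and 31) and 62.0% G+C. Hosts with contigs only inside, 2114 promoters, had medians of 18 and 60.3%, and 12122 protein-coding genes with no antisense contig had 14 and 56.7%. The letters TATAAA, searched on both strands, stood in 6.66%, 6.29% and 13.6% of the promoters in these groups and in 12.03% of all 15560. Protein-coding hosts were also longer and more highly expressed than other protein-coding genes, with median spans of 35.4 and 14.6 kb and median levels of 1.59 and 0.613 RPKM, and the part of that in the composition was not tested. A match is only a run of letters and no evidence of binding.

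The longest antisense contig lay in Kcnq1. It spanned 48013 bases, chr7:150434482-150482494 on the minus strand of mm9, at a level of 0.727, a coverage of 45.2 reads. Its 5′ end lay 189336 bases downstream of the Kcnq1 start, inside a host span of 319797 bases, and only 121 of its bases fell in exons. The host strand at the same bases had a level of 0.00403, so the antisense strand was 181 times as high. Kcnq1 itself had 0.0438 and 0.0934 RPKM, a low level in both.

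Kcnq1 held 10 antisense contigs that summed to 97.1 kb, and most of that length lay in 1 block. Next to the longest contig came 15384 bases at a level of 0.428 (chr7:150419073-150434456) and 27522 bases at 0.824 (chr7:150390571-150418092), all on the minus strand. A short contig of 548 bases at a level of 0.095 lay between the last 2. A single assembled model of 11 exons lay under the block with 0.289 and 0.42 RPKM, or 0.355 ± 0.0924 (SD, n = 2). The junction with most reads touching the longest contig had 7 and 21 reads. On the 27522-base contig a junction with 11 and 10 reads led to Cdkn1c, an imprinted cell cycle inhibitor gene that ends 226162 bases upstream on the same strand. Beyond the 3′ end of the block lay a contig of 1133 bases at 0.663 (chr7:150389363-150390495) and one of 1380 bases at 0.101, and the 4 beyond its 5′ end had levels from 0.037 to 0.144.

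**Figure D5:**
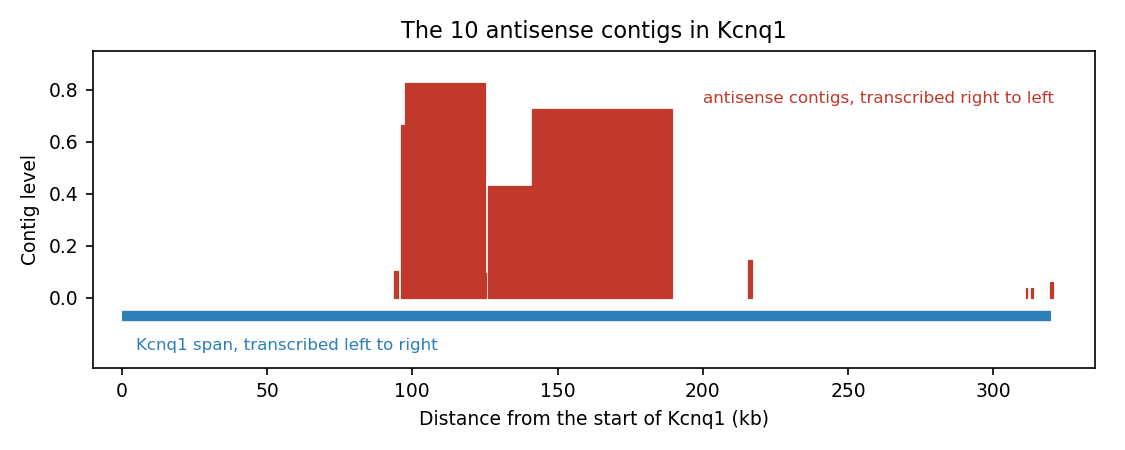
The 10 antisense contigs in Kcnq1, drawn to scale by distance from the Kcnq1 start (kb, horizontal axis) with height equal to the deposited level; the blue bar is the Kcnq1 span. The block of 3 long contigs, with levels of 0.824, 0.428 and 0.727, ends on the right 189336 bases from the start.

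On mm10 the gene at this place is annotated. Kcnq1ot1 (chr7:143203458-143296549, minus strand) begins 190187 bases downstream of the Kcnq1 start in the GENCODE M21 annotation and ends 97096 bases downstream of it; each distance is within its own build and none was converted. It had 6978 and 9760 expected counts in replicates 1 and 2 and, being long, only 0.97 and 1.58 TPM. Scaled by library, replicate 2 was 1.43 times replicate 1 (exact 95% binomial interval 1.39 to 1.47, counting error only). The promoter printed above for Kcnq1ot1 is that of this annotated start.

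Imprinted genes with known antisense transcripts, a list of 14, had 7 hosts with 34 contigs, or 50%, beside 21.9% of all protein-coding genes and 28.7% of those with spans of 30 to 100 kb; the median span of the list is 44.5 kb. The median level of the 34 was 0.0985, against 0.087 over all antisense contigs. Gnas encodes a stimulatory G protein subunit and is overlapped by the antisense RNA Nespas. Its longest contig, of 4060 bases, began 41213 bases downstream of the Gnas start, and whether it belongs to Nespas was not tested. This contig had a level of 1.64 against 0.129 on the host strand, with 101 and 113 reads on its best junction. In Copg2, which encodes a coat protein of transport vesicles, a contig of 6115 bases had a level of 11.2 (chr6:30752812-30758926, plus strand) and a host-strand level of 0.89. The nearest gene upstream on its strand was the imprinted gene Mest, whose end lay 54354 bases away, and the assembled model under it had 3.51 and 2.2 RPKM. Trappc9, the host of the imprinted RNA Peg13, held 6 contigs, the longest of 7626 bases at 0.521, 5.7 times the host strand. Whether any of the 6 belongs to Peg13 was not tested. Ube3a, the ubiquitin ligase gene silenced on the paternal copy in neurons, held 9 contigs; the longest, of 2200 bases, crossed its start at 0.542 with 21 and 8 junction reads. Mest and Commd1 held contigs with highest levels of 0.166 and 0.096.

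Neural patterning factors, the transcription factors that divide the early neural tube into regions, had 17 hosts among 72 measured, or 23.6%, beside 21.9% of all protein-coding genes and 10.1% of those with spans under 10 kb. Their 39 contigs had a median level of 0.13, and 9 crossed a host start. A junction touched 9 of the 39, or 23.1%, against 9.70% of all antisense contigs. The members of this list are short genes, with a median span of 6.07 kb. Their median expression was 2.63 RPKM, against 0.0972 RPKM for all protein-coding genes with spans under 10 kb. The share of 10.1% is thus not matched for expression.

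The longest contig of the list lay at Gata2, a factor for ventral interneurons and blood cells. It ran 10298 bases from 1987 bases inside the gene out across the start (chr6:88135574-88145871, minus strand). Its level was 0.482, against 0.148 on the host strand over the whole contig, most of which lay outside Gata2. Its best junction had 13 and 16 reads, and the model under it had 0.101 and 0.0924 RPKM. At Pax5, which acts at the midbrain-hindbrain boundary, a contig of 4893 bases began 331 bases inside the gene and crossed its start at 0.931 (chr4:44723988-44728880, plus strand). That was 16.6 times the host-strand level over the whole contig. Most of the contig lay outside Pax5, so the ratio does not compare it with the gene itself. The Pax5 model had 0.317 and 0.105 RPKM, and the host itself 1.55 and 0.627 RPKM, so both were lower in the second value.

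Irx2, an Iroquois homeobox gene, had a contig of 1874 bases that began 149 bases inside the gene and left it across the start, at a level of 1.63 against 2.39 on the host strand (chr13:72764520-72766393, minus strand). Tcf7l2, a factor of the Wnt pathway, had a start-crossing contig of 2018 bases at 2.36 against 1.5 on the host strand. Its best junction had 39 and 64 reads, so the contig was spliced in both libraries. Nr2f2, an orphan nuclear receptor gene, had 1 contig of 2495 bases across its start at 0.467, with 27 and 75 junction reads (chr7:77509495-77511989, plus strand); the model under it reached an annotated gene on its strand. On mm10 the noncoding gene B130024G19Rik starts 1825 bases inside Nr2f2 and runs out across its start; it had 1235 and 1819 expected counts and 6.85 and 8.41 TPM.

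Start-crossing contigs also lay at Meis2 (level 0.706), Otx1 (0.619), Barhl2 (0.18) and En2 (0.039), all homeobox genes. Their best junctions had 17 and 4 reads at Meis2, 8 and 2 at Otx1, and 5 and 2 at Barhl2. The contig at En2 stood at 0.00516 of a host-strand level of 7.56, below the 0.01 ratio, and no junction was seen in both values. Zic4 and Lhx2, transcription factor genes of the dorsal neural tube and the forebrain, had their longest contigs inside, at 0.801 and 0.355 beside host-strand levels of 5.14 and 5.4. The Lhx2 contig had 11 and 5 junction reads. The 3 contigs in Vax2, an eye and ventral forebrain factor, had levels from 0.154 to 0.173 while Vax2 itself had 0.0341 and 0.0254 RPKM; the model under the longest, with 0.78 and 1.64 RPKM, reached an annotated gene on the contig's strand. Pax7, En1, Barhl1, Lhx9 and Foxb1 each held 1 contig, with levels from 0.07 to 0.218.

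Synapse and axon genes with long introns had 22 hosts of 30, or 73.3%. Among all protein-coding genes with spans of 100 kb or more the share was 43.0%. The median span of the list is 1074 kb, against 167 kb for those genes, so the shares are not matched for span. Their 66 contigs had a median level of 0.122, and 62 lay inside the host. Ptprd, a receptor phosphatase gene, held 11 contigs with levels from 0.028 to 0.158. Tenm4, which encodes a teneurin adhesion protein, held 7, of which the highest had a level of 2.38. Dcc, the netrin receptor gene, held 7 with a highest level of 4.12. In Macrod2 a contig of 3718 bases at 0.378 had no host-strand contig at all and 30 and 9 junction reads. Ctnna2, an alpha-catenin gene of neurons, had a contig of 797 bases at 2.3. At Nrg3 and Robo2, a neuregulin and an axon guidance receptor gene, a contig began 89 and 103 bases inside the gene and crossed its start, at 0.364 and 0.041.

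Housekeeping and very highly expressed genes had 3 hosts of 20, or 15%, with 1 contig each. Among protein-coding genes with spans under 10 kb the share was 10.1%. The median span of the list is 4.71 kb. Its median expression was 119 RPKM, against 0.0972 RPKM for that span class. At Hsp90ab1, a chaperone gene with 210 and 149 RPKM, a contig of 3611 bases crossed the start at 0.354, which is 0.00513 of the host-strand level of 69.0. Its best junction had 2 and 1 reads. At Rps12, a ribosomal protein gene, a contig of 931 bases crossed the start at 0.769, and at Map1b, which encodes a microtubule-associated protein, 1 of 1163 bases lay inside at 0.116. In all 4 lists the genes were picked with earlier results of these data known, so their counts are descriptions. No list was matched in expression or span to the genes set beside it.

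Beyond Kcnq1, the 10 longest antisense contigs included several that crossed an end of the host or covered it. At Sall1, a zinc-finger factor gene, 20238 bases ran from 1206 bases inside the gene out across its start (chr8:91566856-91587093, plus strand) at 0.782. The host strand had 0.0176 over the whole contig, most of which lay outside Sall1, while Sall1 itself had 2.88 and 2.88 RPKM. The best junction of the contig had 45 and 31 reads, and the model under it 0.186 and 0.179 RPKM, or 0.182 ± 0.00511 (SD, n = 2). Contigs of 38413 bases at 4930517O19Rik and 28968 bases at Slc16a4 had levels of 0.638 and 1.72, and for both the assembled model reached an annotated gene on the contig's strand. At Ripor1 a contig of 26683 bases crossed the host end at 1.53, with 320 and 93 junction reads and a host-strand level of 1.24. Wnt2b and Steap2, a Wnt ligand and a metalloreductase gene, held contigs of 17872 and 17374 bases at 0.44 and 0.886. The last 2 covered genes without a symbol here, over 22405 and 21469 bases; the first of these had 278 and 224 junction reads and a model with 0.187 and 0.595 RPKM.

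The 10 highest levels came from contigs of 527 to 6053 bases, in hosts of many kinds. The highest, 2430, was a contig of 6053 bases that covered ENSMUSG00000045999 (chr17:39979936-39985988, plus strand), a coverage of 151242 reads. The host, with 0.0294 and 0.0549 RPKM, spans only 725 bases, so most of the contig lay outside it. Which RNA gave these reads was not tested. In Jarid2, a gene of the Polycomb complex, 527 bases reached 923, and the model under them had 249 and 135 RPKM. At Gm9800, a processed pseudogene in GENCODE M21, the level of 185 faced 1770 on the host strand; a pseudogene can share reads with its parent gene, so both values are uncertain. Contigs at Ptms, Cyb5r3, Anp32b and Zc3h13 had levels of 43.7, 34.5, 32.1 and 18.4 and lay over host exons for 750, 1140, 527 and 601 of their bases. Whether reads at these places map elsewhere was not tested. Contigs in introns of 1700017D01Rik and Wdr70 had 17.6 and 14.2 with no host-strand contig, and the Wdr70 model had 56.2 and 18.5 RPKM. Another, at 82.1, lay inside a host without a symbol here, and its model had 14.3 and 5.86 RPKM.

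Among the 10 hosts with the largest summed contig length, antisense contigs were many and faint in most. E130114P18Rik held 77 contigs that covered 55.4% of its span at a median level of 0.089. The model under the longest of them, 8091 bases, had 0.898 and 1.42 RPKM and reached an annotated gene on the contig's strand. F13a1, the gene of a coagulation factor subunit, held 73, Dnah17, a dynein gene of cilia, 40, Arhgef4 36, Kansl1l 35 and Rnf213 32, at median levels of 0.085, 0.0825, 0.101, 0.112 and 0.094. Dnah17 itself had 0.00724 and 0.00603 RPKM, so its 53.3 kb of antisense contigs lay over a gene close to silent. Nr6a1, an orphan nuclear receptor gene, held 17 contigs at a median of 0.198, and 4930517O19Rik held 6 at a median of 0.4225. The longest contig in Nr6a1, 9529 bases at 0.448, had 9 and 8 reads on its best junction. It began 2089 bases after the microRNA gene Mir181b-2 and was joined by 2 and 7 reads to Nr6a1os, an annotated antisense gene.

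Later annotation adds genes on the opposite strand of some hosts. Gene spans were compared with gene spans, so whether a partner gene overlaps any antisense contig was not tested. In GENCODE M21, 2183 of the 4899 hosts found there (44.6%) have a gene on the opposite strand that the mm10 tables measure, against 29.3% of other Ensembl 65 genes. Most of these partners were already in Ensembl 65, whose gene spans on a contig's own strand the rule excludes. Those that were not lay opposite 480 hosts (9.80%) and 4.10% of other genes. Among protein-coding genes of 100 kb or more the shares were 19.3% of hosts and 14.1% of other genes. The 625 later partners included 224 of the type antisense and 58 lincRNAs, and 74 of the 625 had 1 TPM or more in both libraries, while 258 had no count in either.

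The share of partners that were 2-fold apart between the libraries lay near the share over all genes. Of 3170 partners 1433 had at least 100 summed counts, and 128 of these (8.93%) were at least 2-fold apart, 60 higher in replicate 2 and 68 in replicate 1, against a background of 11.4% over all 16511 genes with that many counts. Among the 123 later partners with 100 counts the number was 19, or 15.4%, with 9 higher in replicate 2 and 10 in replicate 1.

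The highest later partners include known noncoding genes. Snhg6, a host gene of small nucleolar RNAs, overlaps only the end of Mcmdc2. It ends 33321 bases downstream of the Mcmdc2 start, in a host span of 33448 bases. Snhg6 had 107 and 114 TPM in replicates 1 and 2, but by scaled counts replicate 2 was 0.871 times replicate 1 (interval 0.829 to 0.916). Rab26os, opposite the vesicle gene Rab26, had 65.9 and 154 TPM, and replicate 2 was 1.83 times replicate 1 by scaled counts (interval 1.67 to 2.01). Snhg14, a long imprinted RNA whose annotated gene overlaps only the end of Ube3a, had 70.9 and 61.1 TPM. That gene ends 79174 bases downstream of the Ube3a start, in a host span of 82787 bases. Here too the direction turned: by scaled counts replicate 2 was 1.43 times replicate 1 (interval 1.38 to 1.49). Mir124-2hg, the host gene of a neuronal microRNA, had 84.7 and 66.7 TPM, and Dleu2, opposite Kcnrg, had 16.7 and 28.9 TPM. Fendrr, a noncoding gene of lateral mesoderm that lies within the span of Gm20388, had 7.27 and 15.8 TPM, and replicate 2 was 2.07 times replicate 1 (interval 1.90 to 2.25). Others were higher in replicate 1: Gm5914, opposite the chromatin factor gene Ctcf, by 4.21 times (interval 3.46 to 5.17) and Ccdc85b, opposite Fosl1, by 3.02 times (2.72 to 3.35). These intervals are exact 95% binomial ones that cover counting error only and say nothing of the spread between embryos.

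When partners already in Ensembl 65 are kept, the 10 with the highest mean TPM were mostly protein-coding neighbours whose spans meet the host. Rps14, a ribosomal protein gene opposite Ndst1, led with 2678 and 1924 TPM. Nnat, an imprinted membrane protein gene inside Blcap, had 1113 and 1836 TPM, and Mest, opposite Copg2, 712 and 1237 TPM. The pseudogene Gm12338, opposite Pitpna, had 3526 and 668 TPM, and its reads may be shared with a parent gene. Rps28, Rpl35a, Tardbp, Sod1, Hnrnpab and Srsf2 made up the rest, with mean TPM from 634 to 1358.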

How the data were processed

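Polyadenylated RNA of 2 libraries was analysed. Per the file headers and the labels, tables lie on mm9 with Ensembl 65 or on mm10; neither the aligner nor the contig builder is named there. Deposited by the authors were a pooled contig list whose level is a signal of read coverage, splice junction read counts, RPKM for assembled models, and, per library, an expected count and TPM per gene. Expected counts were rounded, and rows that are not Ensembl genes (4.67% and 3.30% of the counts) stayed out of the library sizes. No deposited column was left without a sample or group (0 columns).

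Overlaps used bedtools 2.31.1 in Python 3.11.15 with pandas 2.3.3. A contig's main host was the gene with the largest overlap. The host-strand level was the length-weighted mean level of opposite-strand contigs over the whole contig, 0 where none lay. Host genes were joined to mm10 by Ensembl identifier (32620 of 37310 found in GENCODE M21, which also gave symbols), and no coordinate was converted. Counts were scaled with TMM (edgeR 4.0.16) or, as an alternative, DESeq2 1.42.0 size factors; 2-fold calls needed at least 100 summed counts, with 0.5 added to each count. The mm9 genome was not used here, so contig sequences were not read. The classification and the fold calls were tested on simulated data.

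Named contigs were the 10 highest, the 10 longest and the longest in each of the 10 hosts with most contig bases; named hosts were those 10, the hosts in 4 gene lists, and the 10 with the highest partner TPM. The later partners named were chosen after their values were seen. The members and lists were chosen with earlier results of these data known.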

Additional observations from a re-analysis of the deposited data

How the results depend on the processing

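No paired analysis was possible because the study has 1 group and no contrast. With a minimum length of 200 bases there were 40576 antisense contigs (6.94% of contigs) on 10657 hosts, with a median level of 0.057, 22.4% touching a host exon and a median ratio to the host strand of 0.231. With 1000 bases these were 4517 (3.15%), 2879 hosts, 0.134, 63.7% and 0.609. With 50% of the contig inside the host span the share was 3.52% and the median level 0.082, and with no same-strand gene within 5000 bases the share was 3.10%. Counting an exon from 50 bases gave 40.0%, and the highest opposite-strand contig in place of the mean gave a ratio of 0.240. The share with a junction was 6.63% at 2 reads in each value, 3.20% at 5 and 40.6% at 1 read in either. Leaving out 1 of the paired values gave 28.2% to 30.6%, since a read in 1 library is then enough. Partners at least 2-fold apart numbered 83 on log2(TPM + 1), 565 from 1 count and 210 from 20 counts, against 128; the TPM scale moves the median of all genes by 0.12 on the log2 scale. Partners at 1 TPM or more were 1270 in both libraries and 1294 to 1342 in a single one. Another alternative, chosen after seeing the data, left out contigs within 5000 bases after a same-strand gene end or joined to a same-strand gene. It kept 8866 contigs at a median level of 0.086.

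The contig list is pooled, so no contig level can be compared between the libraries. A contig at the median level had a coverage of 5.40 reads per base, and the junctions touching antisense contigs had medians of 4 and 3 reads.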
